A study of Mus musculus with 56 samples.

Results

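The AP-1 transcription factor genes were followed through 56 lists of ChIP-seq peaks from mouse bone marrow-derived macrophages (BMDMs). Members were the peaks whose gene name in the files was Fos, Fosb, Fosl1, Fosl2, Jun, Junb, Jund, Atf3, or Batf, and they made up 3084 of 1610519 peaks and 9 of the 20352 genes with a peak. The cells came from wild-type mice aged 8 to 12 weeks and were differentiated for 6 days with L929 supernatant, a source of M-CSF. In the first experiment, untreated cells (ctrl) were compared with cells given 20 ng/ml IL-4 for 1 hr, with 8 antibodies. In the second experiment, 3 antibodies were used on cells left untreated (ctrl/ctrl), given 20 ng/ml IL-4 for 24 hr (IL-4 PT/ctrl), given 100 ng/ml LPS for 1 hr (ctrl/LPS), or given IL-4 for 24 hr and then LPS for 1 hr (IL-4 PT/LPS). Each group of each antibody held 2 samples. All were cultured, double cross-linked BMDMs, and the labels do not say whether the samples of a group came from separate mice. The study describes its ChIP-seq replicates as independent biological ones, and p values measure the spread between these samples. Where a group had no peak, both its values were set, so p does not measure a spread within that group.

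AP-1 is a family of bZIP transcription factors that bind DNA as dimers. Fos proteins need a Jun partner, Jun proteins can also pair with one another, and Atf3 and Batf pair with Jun proteins as well. Fos, Fosb, Jun, Junb, and Atf3 are immediate early genes, switched on quickly by growth factors, stress, and microbial products through MAP kinases and serum response factor. In macrophages, AP-1 also binds enhancers together with PU.1, the ETS factor that sets macrophage identity. LPS, a cell wall component of Gram-negative bacteria, activates AP-1 and also NF-κB, of which p65 is a DNA-binding subunit. IL-4 acts through the transcription factor STAT6.

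The files give each peak a score, the −log10 of the peak caller's p or q. For H3K27Ac, the acetylation of histone H3 found at active enhancers and promoters, it was a normalized read signal instead. Read depth was not given in the sources used here, so the number of peaks stood in for it: 26982 to 27797 for H3K27Ac, 65055 to 71027 for PU.1, 22340 to 30511 for HDAC1, 19683 to 28017 for HDAC2, and 8440 to 13599 for HDAC3. The p300 list of ctrl replicate 1 stood apart with 44787 peaks, against 66710 to 69360 in the other p300 lists. The HDAC3 labels carried the catalogue number of the H3K27Ac antibody. The peak names in the 4 lists of RNAPII-pS2 after 1 hr carried the treatment opposite to the label, and 7 genes known to respond to IL-4 had a median log2 difference of −3.05 there against 1.04 with RNAPII-pS5. Macrophage markers were present, with RNAPII-pS5 peaks at 7 of 9 marker names in every group. Emr1 and Adgre1 are names of the same gene, and its peaks carried Emr1. In ctrl their summed score was 725 to 908, against 64.2 to 64.5 for the T cell marker Cd3d, 47.6 to 103 for B cell markers, 13.6 to 16.6 for neutrophil markers, and 0 to 3.39 for fibroblast markers.

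Most peaks of the AP-1 genes lay away from the genes. Of the 3084 peaks, 74.5% were intergenic and 4.9% lay at a promoter, against 39.0% and 13.1% of all peaks. Jun had the most peaks (730, of which 89.5% were intergenic), spread from −251 kb to +4.02 kb of its start site. Fos had 590 peaks from −46 kb to +60.3 kb, Atf3 had 516 from −67.2 kb to +2.87 kb, Fosl2 had 451 from −218 kb to +40.3 kb, Batf had 371 from −43.2 kb to +26.8 kb, and Fosb had 194 from −17.4 kb to +9.09 kb. Junb, Jund, and Fosl1 had fewer, with 115, 88, and 29 peaks. The first 6 of these genes had a peak in all 56 lists, whereas Junb had one in 44, Jund in 41, and Fosl1 in 23. Fosl1 had no RNAPII-pS5 peak in any sample. The files assign each peak to the nearest start site, so a distance below states where a peak lay and not which gene it acts on.

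The 1 hr experiment asked which genes and enhancers respond at once to IL-4. RNAPII-pS5, the polymerase phosphorylated at serine 5 of its tail and found near start sites and at active enhancers, did not differ at any AP-1 gene beyond the spread between samples. Scores were summed over the peaks of a gene, set on a log2 scale, and centred on genes found in every sample, and limma was fitted across all genes. At an adjusted p of at most 0.05, 1.84% of 13481 genes were called and 0 of 8 AP-1 genes. None of the 8 reached an unadjusted p of 0.05, against 14.7% of all genes. Fos, the founding member of the family, scored 314 and 257 in ctrl and 305 and 272 after IL-4, a log2 difference of 0.07 ± 0.16 (SE, n = 2 per group, limma adjusted p = 0.903). Jun, its main partner, scored 356 and 259 in ctrl and 286 and 305 after IL-4. The groups overlapped for both genes. Batf, a small bZIP factor without a transactivation domain, had the highest sums, at 497 and 391 in ctrl and 412 and 354 after IL-4. Fosl2 had the largest difference, from 112 and 56.9 to 109 and 117, which was 0.54 ± 0.23 (adjusted p = 0.413), and its groups overlapped too. Atf3, Fosb, Junb, and Jund differed by −0.18 to 0.31.

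Within a gene, single sites moved apart although the sum did not. These sites were not tested alone, and all but the highest site of each gene were chosen after their values were seen. At the start site of Fos, the RNAPII-pS5 score was 59.4 and 57.5 in ctrl and 99.2 and 83.4 after IL-4. Both IL-4 samples were above both ctrl samples. The Batf intron site at +11.7 kb scored 159 and 118 in ctrl and 70.0 and 70.6 after IL-4, the opposite order without overlap. Batf was highest at another intron site at +18.8 kb, where the 4 scores were 242 and 195 in ctrl and 227 and 194 after IL-4, which overlapped. The highest sites of Atf3 (−41.7 kb, 109 and 102 in ctrl against 96.2 and 86.6) and Jun (+0.511 kb, in its 5′ UTR, 90.2 and 77.9 against 67.7 and 68.5) were lower after IL-4 in both samples. Junb had 89.9 and 85.4 in ctrl and 104 and 101 after IL-4 at its single exon.

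RNAPII-pS2, the elongating polymerase phosphorylated at serine 2, gave no called gene in the 1 hr experiment: 0% of 10617 genes passed with limma, 1758 (16.6%) had an unadjusted p of at most 0.05, and 1 of the 9 AP-1 genes (11.1%) was among these. That gene was Fos, with 50.7 and 79.7 in the libraries labelled ctrl and 102 and 139 in the libraries labelled IL-4 1 hr (log2 difference 0.98 ± 0.28, adjusted p = 0.213). Batf followed with 64.2 and 97.7 against 119 and 131 (0.74 ± 0.28, adjusted p = 0.313). Jun had 128 and 153 against 89.1 and 112, and Jund had 32.5 and 49.0 against 19.5 and 29.8. Since the peak names in these 4 lists carry the opposite treatment, the direction holds only for the labels.

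H3K27Ac differed at some AP-1 sites after 1 hr of IL-4, in either direction. Of 36 sites tested, 12 (33.3%) passed, 6 higher and 6 lower, against 40.5% of 28929 sites in all (18.6% higher and 21.9% lower), so the share was near the background. The higher sites lay upstream of Jun, at the Fosl2 promoter, at Fos, and at Batf. At −178 kb from Jun (chr4:95230050-95231149, mm10), the signal was 85.0 and 67.8 in ctrl and 194.4 and 170.1 after IL-4, a log2 difference of 1.31 ± 0.15 (adjusted p = 0.0104). At −251 kb it was 33.5 and 27.8 against 54.3 and 54.2 (0.88 ± 0.11, adjusted p = 0.0124), and at −218 kb 14.4 and 14.1 against 26.2 and 24.3 (0.88 ± 0.07, adjusted p = 0.00524). All 3 Jun sites had both IL-4 samples above both ctrl samples. The Fosl2 promoter went from 305.7 and 295.2 to 419.5 and 453.0 (0.59 ± 0.07, adjusted p = 0.0103). Fosl2 encodes a Fos-related protein that lacks a strong transactivation domain. At −13.1 kb from Batf the signal was 20.9 in 1 ctrl sample, with no region in the other, and 64.6 and 68 after IL-4 (adjusted p = 0.0301).

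Lower H3K27Ac was found at Fos, Fosb, Batf, and Atf3. The Fosb site at −6.36 kb had 168.5 and 173.4 in ctrl and 102.0 and 94.1 after IL-4, which was −0.75 ± 0.08 (adjusted p = 0.00786). The Fos site at −18.4 kb had 266.4 and 250.6 against 173.2 and 181.9 (−0.49 ± 0.07, adjusted p = 0.014). In both sites the groups did not overlap. Weaker sites were lower at +44.5 kb from Fos (35.3 and 37.5 against 25.8 and 28.1) and at −38.5 kb and −26.9 kb from Batf (38.7 and 32.8 against 25.8 and 23.6, and 29.8 and 29.7 against 20.2 and 14.9). The −48.0 kb site of Atf3, a stress-induced repressor, went from 539.7 and 526.1 to 414.2 and 426.6 (−0.29 ± 0.06, adjusted p = 0.0305). On leaving out any 1 of the 4 libraries, 6 to 7 sites passed.

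Other strong H3K27Ac sites of the AP-1 genes did not pass. At −41.6 kb from Atf3 the signal was 725.1 and 675.8 in ctrl and 664.5 and 641.5 after IL-4 (−0.05 ± 0.07, adjusted p = 0.618), at +18.7 kb in Batf 441.4 and 449.3 against 441.4 and 428.7, and at −140 kb from Jun 510.2 and 503.3 against 447.7 and 456.1. Jund, whose product is present in most resting cells, had 342.9 and 349.6 against 379.1 and 368.0 at its 3′ UTR. Fosl1 had 13.8 and 15.3 against 12.3 and 11.5 in its 5′ UTR, the lowest of these. At +16.1 kb from Fos a region of 516.5 and 571.4 was listed in both IL-4 samples and in neither ctrl sample (adjusted p = 9.91e-05). However, these lists leave out strong regions at times. Of 1249 regions of at least 400 in ctrl replicate 1, 36 had none in replicate 2, and 71 of 1132 such regions in both IL-4 lists were absent from both ctrl lists. At the same Fos region p300 scored 34.2 and 77 in ctrl and PU.1 17.0 and 10.4, so the region was occupied before IL-4.

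p300, an acetyltransferase that marks active enhancers, passed at 14 of 121 AP-1 sites (11.6%), all higher after IL-4, against 13.1% of 67229 sites in all and 11.5% higher. Of these, 12 had no p300 peak in either ctrl sample, and their adjusted p depends on the value given to a missing peak. The windows below are the 300 bases around the middle of a p300 site of Batf and a p300 site of Atf3, shown because p300 was highest there among the called Batf sites and because it is the called Atf3 site, and chosen after their values were seen. They lie on the + strand of GRCm38.p6 at chr12:85673759-85674058 and chr1:191244303-191244602. Capitals mark a PU.1-type GAGGAA, a STAT6-type TTCNNNNGAA, and a degenerate NF-κB motif, searched on both strands.
Batf −12.8 kb: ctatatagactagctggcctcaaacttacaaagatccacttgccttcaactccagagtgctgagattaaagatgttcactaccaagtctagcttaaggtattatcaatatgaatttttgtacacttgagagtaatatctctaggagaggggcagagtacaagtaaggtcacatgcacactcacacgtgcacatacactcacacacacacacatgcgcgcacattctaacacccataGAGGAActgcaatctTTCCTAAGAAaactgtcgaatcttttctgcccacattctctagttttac
Atf3 −61.1 kb: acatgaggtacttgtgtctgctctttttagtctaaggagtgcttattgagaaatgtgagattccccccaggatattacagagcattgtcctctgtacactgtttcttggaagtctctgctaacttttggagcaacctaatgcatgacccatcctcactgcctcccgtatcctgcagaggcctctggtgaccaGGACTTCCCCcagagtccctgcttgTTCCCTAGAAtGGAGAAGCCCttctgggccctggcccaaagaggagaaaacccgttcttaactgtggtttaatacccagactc
The Batf window held 1 STAT6-type and 1 PU.1-type match, and the Atf3 window 1 STAT6-type match and 2 degenerate NF-κB matches. The STAT6-type letters occur in 13.3% of 67225 windows of this length at p300 sites and in 6.95% of 32851 promoters, GAGGAA in 49.6% and 28.3%, and the degenerate NF-κB motif in 21.4% and 26.8%.

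The highest p300 scores among the called sites were at Batf. At −12.8 kb p300 scored 6.15 and 24.0 in ctrl and 189 and 198 after IL-4 (log2 difference 3.33 ± 0.23, adjusted p = 0.0108). At −23.5 kb there was no peak in ctrl and scores of 99.7 and 109 after IL-4 (adjusted p = 0.00763). A weaker site inside the gene, at +1.39 kb, had no ctrl peak and 13.3 and 14.2 after IL-4. Upstream of Jun, p300 passed at 5 sites. At −84.0 kb it had no ctrl peak and 79.2 and 81.0 after IL-4 (adjusted p = 0.00763), and at −251 kb it went from 12.4 and 47.2 to 147 and 152 (1.96 ± 0.22, adjusted p = 0.0236). The −10.7 kb, −41.3 kb, and −171 kb sites had no ctrl peak and 11.1 to 38.9 after IL-4. Atf3 gained p300 at −61.1 kb, with no ctrl peak and 67.3 and 67.7 after IL-4 (adjusted p = 0.00763), and Fos at −14.8 kb, with 14.0 and 7.36. Fosl2 gained 4 weak sites, at −8.46, −3.12, +29.2, and +36.7 kb, with 7.52 to 11.2 after IL-4.

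These p300 calls depended on how the samples were scaled. Without centring, 0 sites passed, and those of Atf3 at −61.1 kb, Batf at −23.5 kb, and Jun at −84.0 kb had an adjusted p of 0.0514. Without ctrl replicate 1, the list with fewer peaks, 8 sites passed, without ctrl replicate 2 39 did, and without either IL-4 replicate 0 did. Of 16097 sites that scored at least 50 in ctrl replicate 2, 0 lacked a peak in replicate 1. The strongest p300 sites of the genes did not pass. Atf3 at −47.4 kb had 198 and 268 in ctrl and 287 and 274 after IL-4, Fos at −5.06 kb had 156 and 246 against 226 and 225, and Jun at −178 kb had 89.8 and 220 against 324 and 311 (0.50 ± 0.24, adjusted p = 0.289). Fosb at −6.57 kb, Fosl2 at −23.7 kb, and Batf at +24.1 kb had means of 191, 147, and 148 over the 4 samples, and Jund, Junb, and Fosl1 reached means of 42.8, 42.1, and 13.6.

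PU.1 and the histone deacetylases HDAC1, HDAC2, and HDAC3, which remove acetyl groups and often act as corepressors, gave no called site at the AP-1 genes or elsewhere. With limma 0% of sites passed for each of the 4: of 67996 sites for PU.1, 27384 for HDAC1, 24751 for HDAC2, and 12567 for HDAC3. At an unadjusted p of at most 0.05 there were 8584, 4115, 3396, and 2491 sites, including 14 of 106, 7 of 45, 5 of 43, and 4 of 30 AP-1 sites, or 13.2%, 15.6%, 11.6%, and 13.3% of them against 12.6%, 15.0%, 13.7%, and 19.8% of all. The strongest PU.1 site was at −53.9 kb from Jun, with 148 and 84.5 in ctrl and 112 and 149 after IL-4. Atf3 followed at −14.8 kb with 122 and 82.0 against 110 and 128, Fosl2 at −23.7 kb with 104 and 60.9 against 119 and 90.0, and Fos at −36.2 kb with 85.2 and 53.7 against 88.2 and 88.2. The groups overlapped at the first 3, and log2 differences over the highest sites of the 8 genes with PU.1 ran from −0.78 to 0.54.

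HDAC3 was highest at −178 kb from Jun, with 68.6 and 43.2 in ctrl and 79.6 and 77 after IL-4 (0.24 ± 0.30, adjusted p = 0.787). HDAC1 there was 30.5 and 18 against 18.1 and 11.1, and HDAC2 27.7 and 21.5 against 25.9 and 16.2. None of the 3 passed, although both HDAC3 scores after IL-4 were above both in ctrl. At −5 kb from Fos, the deacetylases were also found together. HDAC3 scored 43.0 and 34.0 in ctrl and 52.4 and 47.2 after IL-4 at −4.97 kb, HDAC1 10.2 and 19.1 against 20.7 and 26.4 at −5.01 kb, and HDAC2 20.2 and 25.6 against 27.1 and 20.1 at −5 kb. HDAC1 was highest at the Fosb promoter, with 16.2 and 27 against 25.3 and 18.3, and HDAC2 at −23.7 kb from Fosl2, with 40.6 and 25.6 against 26.5 and 19.5.

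A single site upstream of Batf, at −12.6 to −13.1 kb depending on the antibody, scored higher in both IL-4 samples than in both ctrl samples with every antibody of that experiment other than RNAPII-pS2. It was chosen after its values were seen. H3K27Ac and p300 passed there, as given above. PU.1 scored 5.67 and 5.15 in ctrl and 28.4 and 27.6 after IL-4 (2.04 ± 0.40, adjusted p = 0.156). HDAC1 had no peak and 3.26 in ctrl and 10.1 and 8.95 after IL-4 (adjusted p = 0.175), HDAC2 had no ctrl peak and 12.7 and 17.4 after IL-4 (adjusted p = 0.113), and HDAC3 had no ctrl peak and 16.9 and 9.16 after IL-4 (adjusted p = 0.0529). RNAPII-pS5 had no ctrl peak and 8.40 and 12.9 after IL-4. RNAPII-pS2 had a peak of 5.41 in 1 library labelled ctrl and in no other list of the 1 hr experiment. In the second experiment RNAPII-pS2 peaks at −12.7 kb appeared only in samples that had been given IL-4, with 20.8 and 26.1 in IL-4 PT/ctrl and 12.9 and 18.3 in IL-4 PT/LPS and none in the 4 samples without it. RNAPII-pS5 peaks at −12.8 kb were found in IL-4 PT/ctrl at 7.29 and 9.66 and in none of the other 6 samples.

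**Figure D1:**
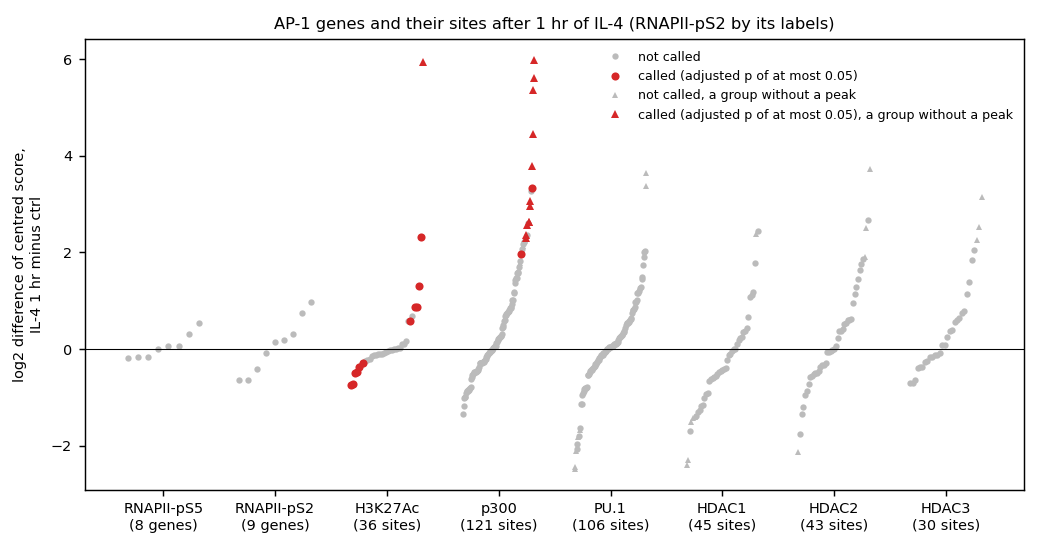
Log2 difference of the centred score between IL-4 1 hr and ctrl for each AP-1 gene (RNAPII-pS5 and RNAPII-pS2) or AP-1 site (other antibodies) tested, 1 column per antibody, with red points called at an adjusted p of at most 0.05 and triangles where a group had no peak. The red points are 12 of 36 H3K27Ac sites, 6 above and 6 below 0, and 14 of 121 p300 sites, all above 0; in RNAPII-pS2 the direction is that of the labels.

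The second experiment asked how LPS acts on macrophages with and without a prior 24 hr of IL-4. In RNAPII-pS5, the median of all genes moved by −0.54 between ctrl/ctrl and ctrl/LPS, and by −0.77 without centring, while the median of the 8 AP-1 genes was 0.464. At the adjusted p of 0.05, 29.5% of 11749 genes were called (9.37% higher and 20.2% lower) and 2 of 8 AP-1 genes (25.0%), near the background. Peak numbers moved with the groups, from 19279 to 20803 in ctrl/ctrl and 21365 to 22149 in IL-4 PT/ctrl down to 14476 to 15349 in ctrl/LPS and 17826 to 18207 in IL-4 PT/LPS, and the part of this in the results was not tested. The summed RNAPII-pS5 score of the macrophage markers also moved, from 515 to 537 in ctrl/ctrl to 274 to 331 in ctrl/LPS, with Csf1r, Lyz2, and Mertk called lower. It was 344 to 369 in IL-4 PT/ctrl, with Fcgr1 and Lyz2 called lower than in ctrl/ctrl, and 233 to 249 in IL-4 PT/LPS. The B cell marker Cd79a was called higher in ctrl/LPS and in IL-4 PT/ctrl than in ctrl/ctrl, and higher in IL-4 PT/LPS than in ctrl/LPS. In RNAPII-pS2 the neutrophil marker S100a8 and the fibroblast marker Col1a2 were called higher with LPS, and of the macrophage markers Itgam and Mertk were called, 1 higher and 1 lower. The part of these markers in the results was not tested. In bulk samples fewer cells carrying a mark and less of it per cell cannot be told apart.

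Batf fell with LPS in the score summed over its peaks. Its RNAPII-pS5 score was 120.2 and 130 in ctrl/ctrl, 122 and 121 in IL-4 PT/ctrl, 28.4 and 28.7 in ctrl/LPS, and 48.3 and 49.0 in IL-4 PT/LPS. All 4 LPS samples were below all 4 samples without LPS, and the pretreated LPS samples were above those given LPS alone. The log2 difference between ctrl/LPS and ctrl/ctrl was −1.81 ± 0.24 (ratio 0.286, limma adjusted p = 0.00372), and it passed under every alternative tried. RNAPII-pS2 at Batf was 159 and 151 in ctrl/ctrl, 96.0 and 125 in IL-4 PT/ctrl, 63.6 and 74.3 in ctrl/LPS, and 95.4 and 96.2 in IL-4 PT/LPS, and fell by 1.40 on the log2 scale with LPS (SE 0.22, adjusted p = 0.00747). After pretreatment the fall of RNAPII-pS5 was −1.20 ± 0.24 (adjusted p = 0.019), which did not pass on leaving out any of the 4 libraries compared (adjusted p = 0.0595 to 0.0722). The difference between the 2 responses did not pass either (0.60 ± 0.34, adjusted p = 0.355). The largest raw losses, in sites chosen after their values were seen, were in the second intron. At +11.7 kb RNAPII-pS5 went from 52.9 and 63.5 in ctrl/ctrl and 57.1 and 53.3 in IL-4 PT/ctrl to no peak in ctrl/LPS and 4.65 and 3.89 in IL-4 PT/LPS, and RNAPII-pS2 went from 58.4 and 57.1 to no peak and 5.15 and 6.02. Weak RNAPII-pS5 peaks at +1.28 kb and −40.8 kb, also chosen after their values were seen, were found only with LPS. They scored 3.06 and 3.36 in ctrl/LPS and 3.18 and 6.84 in IL-4 PT/LPS, and 7.72 and 7.81 and then 9.15 and 8.68. In the 5′ UTR at +0.141 kb, peaks of 2.79 to 5.39 were found only without LPS.

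Junb rose with LPS. Junb, a Jun family member with weaker transactivation than Jun, had RNAPII-pS5 scores of 31.3 and 41.2 in ctrl/ctrl, 41.6 and 40.1 in IL-4 PT/ctrl, 67.4 and 63.3 in ctrl/LPS, and 53.0 and 45.4 in IL-4 PT/LPS. The samples given LPS alone were above all others. The log2 difference from ctrl/ctrl was 1.19 ± 0.29 (ratio 2.28, adjusted p = 0.0268), and it was 0.86 with an adjusted p of 0.0538 without centring. Without ctrl/ctrl replicate 1, ctrl/LPS replicate 1, or ctrl/LPS replicate 2 the adjusted p was 0.0967, 0.0819, or 0.0607. After pretreatment the difference was 0.38 ± 0.29 (adjusted p = 0.401). RNAPII-pS2 at Junb was 45.2 and 43.1 in ctrl/ctrl and 42.6 and 49.7 in ctrl/LPS, which overlapped. Jun itself had RNAPII-pS5 scores of 104 and 80.8 in ctrl/ctrl, 123 and 126 in IL-4 PT/ctrl, 57.0 and 69.1 in ctrl/LPS, and 48.5 and 56.4 in IL-4 PT/LPS. Its difference was called only between the pretreated groups, at −1.13 ± 0.25 (adjusted p = 0.0277), against −0.22 ± 0.25 (adjusted p = 0.527) without pretreatment. It did not pass on leaving out any of the 4 libraries compared (adjusted p = 0.0725 to 0.109), and the difference between these responses did not pass (−0.92 ± 0.36, adjusted p = 0.199). Single Jun sites, chosen after their values were seen, differed in this. In the 5′ UTR at +0.566 kb the pretreated groups overlapped, at 19.5 and 13.4 without LPS and 13.4 and 15.8 with LPS. At −178 kb they were 17.7 and 25.4 without LPS and 7.58 and 3.84 with LPS. Jund ran from 13.3 to 32.2 over the 8 samples and did not pass in any comparison (0.46 ± 0.45 with LPS, adjusted p = 0.462).

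Fosb, which encodes a Fos protein with a transactivating and a shorter form, had a lower RNAPII-pS5 sum in pretreated cells under LPS. Its RNAPII-pS5 score was 57.2 and 38.0 in ctrl/ctrl, 48.3 and 63.1 in IL-4 PT/ctrl, 40.3 and 47.8 in ctrl/LPS, and 21.8 and 20.1 in IL-4 PT/LPS. The IL-4 PT/LPS samples were below all 6 others. The log2 difference from ctrl/LPS was −1.36 ± 0.29 (ratio 0.39, adjusted p = 0.0313), with 14.5% of the 10889 genes tested called, 5% of those tested called lower than ctrl/LPS, and 1 of 8 AP-1 genes (12.5%). From IL-4 PT/ctrl it was −1.29 ± 0.29 (adjusted p = 0.0285), where 20.7% of the 12124 genes tested were called, 13.6% of those tested called lower, and 3 of 8 AP-1 genes (37.5%): Batf, Fosb, and Jun. The call against ctrl/LPS was lost without centring and on leaving out any of the 4 libraries compared, and the call against IL-4 PT/ctrl on leaving out any of its 4. Without intergenic peaks the latter difference became 0.48 (adjusted p = 0.6). The highest Fosb site lay at −6.52 kb, with 46.0 and 31.3, 37.5 and 53.3, 23.8 and 27.7, and 15.7 and 7.79 in the 4 groups in the same order. The Fosb promoter at +0.02 kb, chosen after its values were seen and not tested alone, went the other way with LPS. It had a single peak of 2.5 in ctrl/ctrl and none in IL-4 PT/ctrl. With LPS it had 16.6 and 13.0 in ctrl/LPS and 6.03 and 12.3 in IL-4 PT/LPS. The response of Fosb to LPS differed by −1.53 ± 0.41 between pretreated and untreated cells, which did not pass (adjusted p = 0.0878). RNAPII-pS2 at Fosb was 96.8 and 105 in ctrl/ctrl, 57.8 and 54.5 in IL-4 PT/ctrl, 80.0 and 68.1 in ctrl/LPS, and 40.0 and 45.6 in IL-4 PT/LPS, with pretreated samples lower than untreated ones with and without LPS (adjusted p = 0.0771 and 0.0667).

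Fos and Fosl2 did not pass in any comparison when all their peaks were summed. Fos had RNAPII-pS5 scores of 110.5 and 103 in ctrl/ctrl, 151 and 104 in IL-4 PT/ctrl, 105 and 133 in ctrl/LPS, and 111 and 136 in IL-4 PT/LPS, so ctrl/LPS overlapped ctrl/ctrl and IL-4 PT/LPS overlapped IL-4 PT/ctrl (0.47 ± 0.30 with LPS, adjusted p = 0.291). At the Fos start site, a site chosen after its values were seen and not tested alone, the scores were 25.1 and 17.0, 26.9 and 24.9, 39.7 and 39.7, and 40.2 and 55.6 in the same order, and each LPS sample was above each sample without LPS. At −5.08 kb from Fos they were 29.5 and 22.1, 14.5 and 20.0, 33.5 and 45.2, and 16.1 and 22.4. Here the pretreated LPS samples were lower than those given LPS alone. Fosl2 had 59.9 and 54.6, 61.9 and 45.8, 80.6 and 81.9, and 39.4 and 61.9 (0.83 ± 0.33 with LPS, adjusted p = 0.107), and in RNAPII-pS2 84.4 and 76.0, 86.5 and 65.7, 184 and 167, and 155 and 109.7 (0.91 ± 0.28, adjusted p = 0.0612). In RNAPII-pS2 the samples given LPS were above those without for Fosl2. Fosl1 had RNAPII-pS2 peaks in 3 of the 8 samples, at 3.70 in IL-4 PT/ctrl and 6.91 and 3.5 in ctrl/LPS.

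Atf3 had higher RNAPII-pS2 in the LPS samples, at 182 and 183 in ctrl/ctrl, 154 and 151 in IL-4 PT/ctrl, 296 and 288 in ctrl/LPS, and 259.6 and 278 in IL-4 PT/LPS. The groups with and without LPS did not overlap, but the centred difference of 0.45 ± 0.20 did not pass (adjusted p = 0.144). RNAPII-pS5 at Atf3 was 95.7 and 78.4, 110.5 and 116, 104 and 104, and 99.2 and 86.1. The RNAPII-pS2 site at −47.4 kb went from 38.9 and 53.5 in ctrl/ctrl to 107 and 111 in ctrl/LPS, and that at −10.6 kb from 5.06 and 5.72 to 37.5 and 33.7. These sites were chosen after their values were seen. In RNAPII-pS2 as a whole, 28.4% of 13094 genes were called with LPS, 15.6% lower, and 1 of 9 AP-1 genes (11.1%), which was Batf.

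IL-4 for 24 hr alone called no AP-1 gene. The background was 8.45% of 12035 genes in RNAPII-pS5 and 16.4% of 13050 genes in RNAPII-pS2. At an unadjusted p of at most 0.05 there were 0 of 8 and 2 of 9 AP-1 genes (0% and 22.2%), against 22.3% and 31.6% of all genes. In RNAPII-pS2 the 2 AP-1 genes were Fosb (−0.78 ± 0.22, adjusted p = 0.0667) and Jund (−0.71 ± 0.20, adjusted p = 0.0658), whose scores fell without overlap from 29.0 and 29.9 to 17.0 and 17.4. IL-4 PT/LPS against ctrl/LPS called 9.08% of 12595 genes in RNAPII-pS2 and 0 of 9 AP-1 genes, and against IL-4 PT/ctrl 22% of 13132 genes and 0 of 9. The response to LPS differed between pretreated and untreated cells at 6.87% of 12477 genes in RNAPII-pS5 and 6.8% of 13663 genes in RNAPII-pS2, and at 0 AP-1 genes in either. At an unadjusted p of at most 0.05, 2 of 8 and 2 of 9 AP-1 genes differed (25.0% and 22.2%), against 22.8% and 23.0% of all genes.

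**Figure D2:**
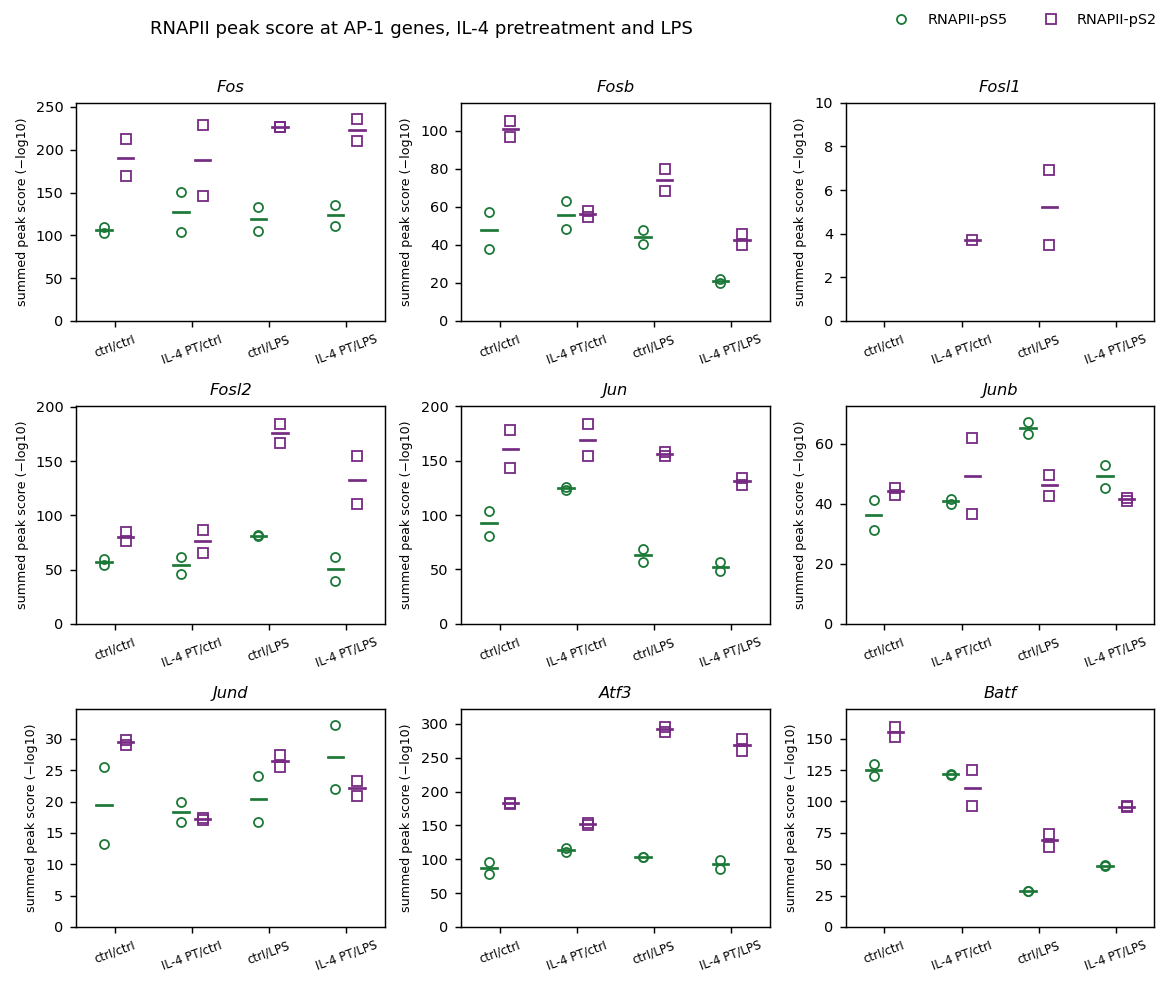
Summed RNAPII peak score (−log10 p or q, linear axis) of each AP-1 gene in the 4 groups of the LPS experiment, with green circles for RNAPII-pS5, purple squares for RNAPII-pS2, 2 samples per group, and bars at the group means. Batf is lower in both forms in ctrl/LPS than in ctrl/ctrl, Junb is highest in ctrl/LPS for RNAPII-pS5 at 67.4 and 63.3, and Fosl1 has RNAPII-pS2 peaks in 3 samples and no RNAPII-pS5 peak.

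Other genes of the pathway gave a mixed picture in RNAPII-pS5. Of 15 further bZIP partner genes tested with LPS, 3 rose and 2 fell, and the median was 0.0113 against −0.54 over all genes. Over all 11749 genes tested, 29.5% were called, 9.37% higher and 20.2% lower. Nfil3, a bZIP repressor, rose by 2.76 ± 0.26 (adjusted p = 0.00158) and Batf2 by 2.13 ± 0.37 (adjusted p = 0.00935), whereas Atf5 (−2.32 ± 0.30, adjusted p = 0.00344) and Mafg (−2.21 ± 0.37, adjusted p = 0.00787) fell. Of 15 other immediate early genes 1 rose, Egr2, a zinc finger factor (1.44 ± 0.32, adjusted p = 0.0204), with a list median of 0.55. Of 13 upstream regulators tested, Map2k3 (1.06 ± 0.26) and Map2k4 (2.90 ± 0.57), kinases of the p38 and JNK pathways, rose and Map2k7 (−3.46 ± 0.89) fell. Of 6 LPS genes 5 rose, among them Il1b by 2.29 and Cxcl2 by 2.21, with a list median of 1.31. In RNAPII-pS2, 3 of 16 bZIP partners rose and 1 fell with LPS, 2 of 15 immediate early genes rose, Egr2 (3.48 ± 0.40) and Ier5 (0.86 ± 0.21), and 1 of 13 upstream regulators fell, Map2k7 (−1.99 ± 0.29). Over all 13094 genes tested there, 28.4% were called, 15.6% of those tested being lower.

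With IL-4, some of these genes were called after 24 hr. After 1 hr, 0 of 15 bZIP partners, 0 of 14 upstream regulators, 0 of 15 immediate early genes, and 0 of 6 LPS genes passed in RNAPII-pS5, while 2 of 7 IL-4 genes rose, Retnla (3.30 ± 0.20, adjusted p = 0.0227) and Socs1 (1.79 ± 0.15, adjusted p = 0.0358). Over all 13481 genes tested, 1.84% were called. After 24 hr, Nfil3 (2.26 ± 0.26) and Batf3 (1.59 ± 0.29) rose and Mafg fell by 1.77 on the log2 scale among the 15 bZIP partners tested, and Egr2 rose by 1.69 and Nr4a1 fell by 1.92 among the 15 immediate early genes, with 8.45% of 12035 genes called in all. In RNAPII-pS2 after 24 hr, 1 of 15 immediate early genes rose, Egr2 (2.70 ± 0.40), and 4 fell, among them Dusp2 (−3.17 ± 0.44), Nr4a1 (−2.69 ± 0.53), and Egr3 (−1.07 ± 0.21), with 16.4% of 13050 genes called in all. Of 16 bZIP partners Nfil3 (2.91 ± 0.34) and Batf3 (1.20 ± 0.28) rose and Crem (−0.93 ± 0.22) fell, and of 14 upstream regulators Elk1 rose (2.36 ± 0.51). Under LPS, pretreated cells had higher Atf5 (4.01 ± 0.30, adjusted p = 0.00337) and Mafg (2.09 ± 0.37, adjusted p = 0.0176) than cells given LPS alone. Egr3 (−1.21 ± 0.25, adjusted p = 0.028) and Mapk8, which encodes the Jun kinase JNK1 (−2.50 ± 0.42, adjusted p = 0.0154), were lower. In that comparison 14.5% of 10889 genes were called in all. The response to LPS differed between pretreated and untreated cells at Mafg (3.85 ± 0.52), Atf5 (3.04 ± 0.42), and Nfil3 (−2.80 ± 0.37), and at 0 upstream regulators and 0 immediate early genes in RNAPII-pS5. It differed at 6.87% of 12477 genes in all.

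Over the 8 samples of the LPS experiment, the genes whose centred RNAPII-pS5 sum was most like that of an AP-1 gene were picked by Pearson's r among 5014 genes found in all 8 samples, as a description. For Fos they were Ipo4 (0.95), Nr1d1 (0.933), and Trim15 (0.933). For Jun they were Myof (0.991), Gm9054 (0.952), and Trio (0.951). For Junb they were Mapk6 (0.987), Id3 (0.987), and Dcp1a (0.965). For Atf3 they were Nceh1 (0.99), Lpin1 (0.966), and 2310043O21Rik (0.951). Among the AP-1 genes themselves, Fosb and Jun had r = 0.82, Fos and Fosl2 0.73, Junb and Atf3 0.73, and Junb and Batf −0.87. These samples share libraries, peak numbers, and centring.

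The binding of p65 was measured in the LPS experiment, to ask where NF-κB goes with LPS and whether prior IL-4 changes it. The sequences below are 300 bases around the middle of p65 sites, on the + strand of GRCm38.p6. The first 4 had the highest mean p65 score in ctrl/LPS among the AP-1 sites called higher with LPS. The fifth, at Fos +16.6 kb, was chosen after its values were seen. They lie at chr1:191197951-191198250, chr12:85705593-85705892, chr12:85513675-85513974, chr1:191230609-191230908, and chr12:85490397-85490696. The Batf window lies in its second intron and the others between genes. Capitals mark an NF-κB-type GGGNNTTTCC, an AP-1-type TGANTCA, a PU.1-type GAGGAA, a STAT6-type TTCNNNNGAA, or a degenerate NF-κB motif.
Atf3 −14.8 kb: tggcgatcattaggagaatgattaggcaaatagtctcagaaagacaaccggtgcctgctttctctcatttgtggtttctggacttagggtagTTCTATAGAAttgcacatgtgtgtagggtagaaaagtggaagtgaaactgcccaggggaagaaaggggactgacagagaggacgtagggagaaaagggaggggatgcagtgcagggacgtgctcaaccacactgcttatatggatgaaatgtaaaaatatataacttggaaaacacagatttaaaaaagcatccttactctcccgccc
Batf +19 kb: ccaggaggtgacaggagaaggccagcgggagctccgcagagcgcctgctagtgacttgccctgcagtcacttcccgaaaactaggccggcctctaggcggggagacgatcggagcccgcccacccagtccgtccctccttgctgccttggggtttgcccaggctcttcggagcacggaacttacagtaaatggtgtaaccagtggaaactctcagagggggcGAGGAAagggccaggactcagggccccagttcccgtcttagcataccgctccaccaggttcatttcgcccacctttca
Fos +39.9 kb: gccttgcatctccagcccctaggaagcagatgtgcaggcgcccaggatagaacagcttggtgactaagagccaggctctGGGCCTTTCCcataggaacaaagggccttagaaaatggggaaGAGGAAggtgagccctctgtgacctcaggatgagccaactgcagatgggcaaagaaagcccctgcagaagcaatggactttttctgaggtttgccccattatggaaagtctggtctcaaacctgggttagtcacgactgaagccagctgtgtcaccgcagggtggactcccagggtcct
Atf3 −47.4 kb: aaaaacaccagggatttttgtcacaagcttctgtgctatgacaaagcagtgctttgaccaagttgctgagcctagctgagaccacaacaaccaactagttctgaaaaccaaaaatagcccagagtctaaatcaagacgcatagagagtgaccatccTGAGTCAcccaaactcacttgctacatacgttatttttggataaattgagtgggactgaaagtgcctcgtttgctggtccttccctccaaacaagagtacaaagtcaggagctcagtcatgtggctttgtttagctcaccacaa
Fos +16.6 kb: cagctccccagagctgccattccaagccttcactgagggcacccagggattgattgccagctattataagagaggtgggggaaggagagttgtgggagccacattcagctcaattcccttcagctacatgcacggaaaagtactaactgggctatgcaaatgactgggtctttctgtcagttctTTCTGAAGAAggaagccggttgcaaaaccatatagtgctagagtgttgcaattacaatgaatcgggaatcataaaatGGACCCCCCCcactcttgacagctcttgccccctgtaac
The Fos +39.9 kb window held the NF-κB-type letters, which overlap the degenerate NF-κB motif there, and a PU.1-type match, the Atf3 −47.4 kb window an AP-1-type match, the Batf window a PU.1-type match, the Atf3 −14.8 kb window a STAT6-type match, and the Fos +16.6 kb window a STAT6-type and a degenerate NF-κB match. GGGNNTTTCC occurs in 7.4% of 37556 windows at p65 sites and in 1.63% of promoters, TGANTCA in 27.9% and 7.81%, GAGGAA in 44.7% and 28.3%, TTCNNNNGAA in 11.5% and 6.95%, and the degenerate NF-κB motif in 32.9% and 26.8%. Of the 8 promoters of AP-1 genes in the RefSeq table, 1 held GAGGAA (Atf3), 5 the degenerate NF-κB motif (Atf3, Batf, Fos, Fosb, and Fosl2), and 0 the other letters.

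LPS brought p65 to many sites near AP-1 genes, in a share near that of all sites. Lists of p65 held 9556 to 9706 peaks in ctrl/ctrl and 26305 to 26820 in ctrl/LPS. Of 63 AP-1 sites 30 were called (47.6%), 24 higher and 6 lower, against 43.5% of 29823 sites in all (38.9% higher and 4.63% lower), and 18 of the 24 had no peak in ctrl/ctrl. Without centring 31 were higher and 3 lower, and with quantile normalization 28 and 4. The median log2 difference was 1.15 over the AP-1 sites and 1.51 over all sites. Higher sites were 7 of 12 at Fosl2, 6 of 10 at Atf3, 5 of 10 at Fos, 4 of 9 at Batf, 1 of 4 at Junb, and 1 of 2 at Jund. Jun had 0 higher and 2 lower of 12, Fosb 0 called of 3, and Fosl1 0 of 1. Where a group had no peak, the fitted difference and its adjusted p both depend on the value given to a missing peak. Both samples of such a group got a set value, so they add no measured spread. Scores and adjusted p values are given there without a fold.

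At Atf3, the −14.8 kb site had p65 scores of 18.7 and 18.4 in ctrl/ctrl, 12.6 and 14.3 in IL-4 PT/ctrl, 78.5 and 111 in ctrl/LPS, and 70.5 and 78.2 in IL-4 PT/LPS. All LPS samples were above all others, and the log2 difference with LPS was 1.28 ± 0.22 (adjusted p = 0.00631). The −47.4 kb site had 14.2 and 13.4, 17.5 and 20.7, 56.8 and 53.7, and 51.7 and 52.0 (0.96 ± 0.18, adjusted p = 0.00816). Atf3 sites at −6.65 kb and −10.6 kb had no peak in the 4 samples without LPS, and 16 and 23.0 and then 13.0 and 9.68 in ctrl/LPS (adjusted p = 9.79e-05 for each).

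At Batf, p65 went up at some sites and down at another. The +19 kb intron site had 13.7 and 9.16 in ctrl/ctrl, 14.9 and 21.3 in IL-4 PT/ctrl, 83.4 and 85.4 in ctrl/LPS, and 74.4 and 81.2 in IL-4 PT/LPS (1.87 ± 0.30, adjusted p = 0.00485). This call held under every alternative tried. The +17.0 kb site had no peak without LPS and 30.1 and 21.1 in ctrl/LPS (adjusted p = 7.92e-05), and the −20.0 kb site a single peak of 5.64 in ctrl/ctrl and 39.5 and 53.4 in ctrl/LPS (adjusted p = 0.0445). The +11.6 kb site, where RNAPII was lost with LPS, had p65 at 17.7 and 16.7 in ctrl/ctrl, 12.2 and 13.0 in IL-4 PT/ctrl, 12.6 and 11.2 in ctrl/LPS, and 23.0 and 29.9 in IL-4 PT/LPS. It was called lower with LPS (−1.57 ± 0.18, adjusted p = 0.00133), but without centring the difference was −0.53 and did not pass (adjusted p = 0.0652).

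Fos gained p65 downstream of the gene. At +39.9 kb p65 was 5.07 in 1 ctrl/ctrl sample and absent in the other, 2.90 and absent in IL-4 PT/ctrl, 73.4 and 74.9 in ctrl/LPS, and 120.2 and 121.1 in IL-4 PT/LPS (adjusted p = 0.0472 with LPS). At +36.8 kb it was absent without LPS, 20.9 and 26.4 in ctrl/LPS, and 48.4 and 45.8 in IL-4 PT/LPS, and at +50 kb 6.03 and 7.69, 11.9 and 7.30, 29.5 and 24.0, and 38.5 and 44.8 (0.92 ± 0.27, adjusted p = 0.0449). The 3 sites were higher in the LPS samples, with the highest scores in pretreated cells. Between IL-4 PT/LPS and ctrl/LPS only the +36.8 kb site was called. At −5.06 kb the scores overlapped between groups, at 31.6 and 45.0, 38.3 and 22.8, 33.4 and 35.4, and 31.4 and 50.2, although the centred difference was called lower (−1.18 ± 0.34, adjusted p = 0.0418). Without centring it was −0.13 (adjusted p = 0.765).

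Fosl2 sites higher with LPS had no peak in ctrl/ctrl, the strongest at −200 kb with 20.7 and 38.5 in ctrl/LPS and 28.9 and 21.6 in IL-4 PT/LPS (adjusted p = 0.000227). This site and 3 others of the 7 lie in introns of a neighbouring gene. Jund gained p65 in its 5′ UTR at +1.07 kb, with no peak without LPS, 22.3 and 17.4 in ctrl/LPS, and 26.1 and 14.1 in IL-4 PT/LPS (adjusted p = 0.000354). Near Junb, p65 was lost at −2.33 kb, from 24.3 and 15.0 in ctrl/ctrl and 16.9 and 14.2 in IL-4 PT/ctrl to a single peak of 3.86 in ctrl/LPS and of 4.40 in IL-4 PT/LPS (adjusted p = 0.0114), and found at −3.60 kb, with 6.74 and 13.3 in ctrl/LPS and none without LPS (adjusted p = 0.00102). Upstream of Jun at −178 kb, p65 was 20.6 and 22.5 in ctrl/ctrl, 34.3 and 17.7 in IL-4 PT/ctrl, 8.52 and 19 in ctrl/LPS, and 18.2 and 21.2 in IL-4 PT/LPS (−1.80 ± 0.47 with LPS after centring, adjusted p = 0.0293). The difference was −0.76 without centring (adjusted p = 0.258) and −1.24 with quantile normalization (adjusted p = 0.0693), and did not pass in either.

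**Figure D3:**
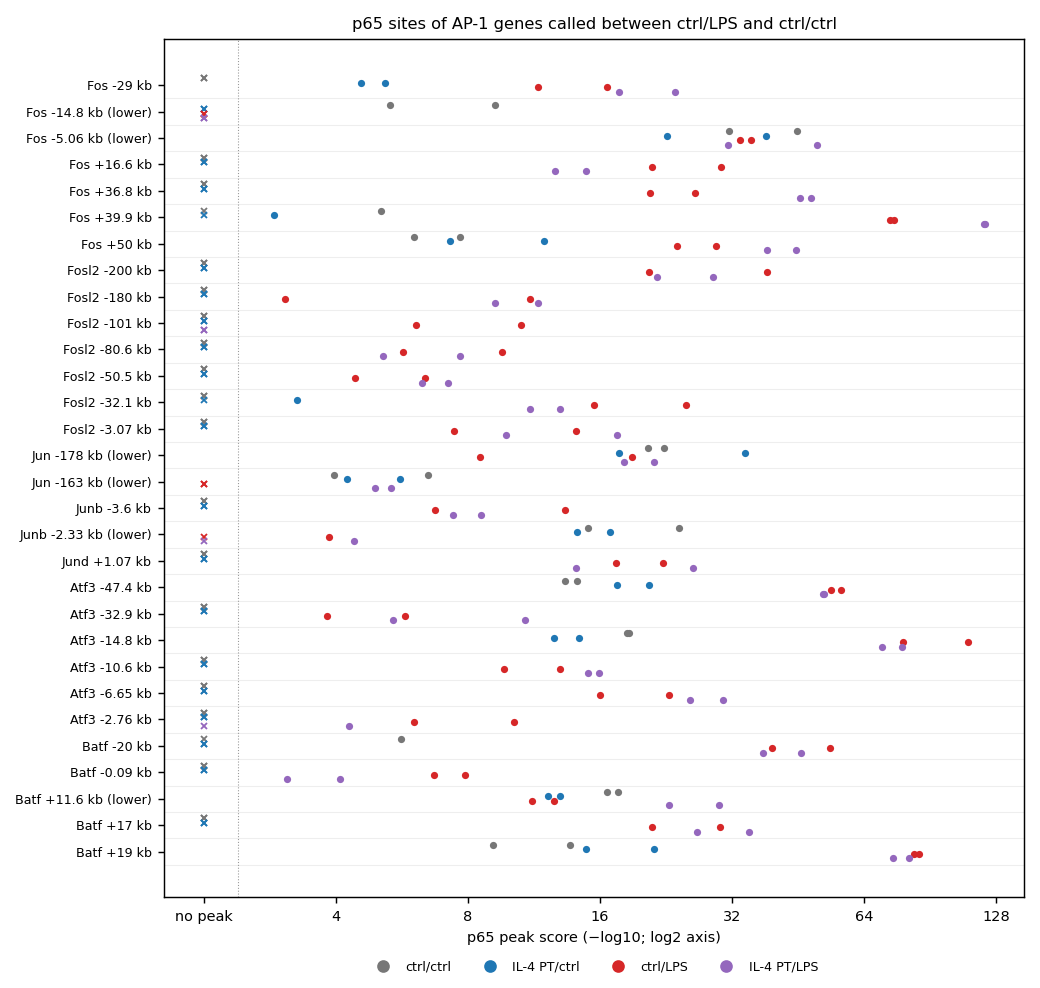
Peak score of p65 (log2 axis) in each sample at the 30 AP-1 sites called between ctrl/LPS and ctrl/ctrl, with 4 colours for the groups, 2 samples each, and a cross where a sample had no peak. Sites marked lower are 6 of the 30, and the highest scores are 120.2 and 121.1 at Fos +39.9 kb in IL-4 PT/LPS.

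IL-4 for 24 hr alone called 3 of 44 AP-1 sites for p65 (6.82%), 2 higher and 1 lower, against 15.5% of 16313 sites (9.15% higher and 6.36% lower). Atf3 at −61.1 kb had no p65 peak in ctrl/ctrl and 4.14 and 4.37 in IL-4 PT/ctrl (adjusted p = 0.00235), and Fos at −29.0 kb no peak and then 5.18 and 4.57 (adjusted p = 0.000747). At −14.8 kb from Fos, p65 was 9.23 and 5.33 in ctrl/ctrl and absent in the other 6 samples (adjusted p = 0.00075). Each of these scores is low. This Fos site was called for p300 after 1 hr of IL-4 in the other experiment, as given above, a call lost without centring.

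Under LPS, pretreatment with IL-4 changed p65 at 17 of 75 AP-1 sites (22.7%), 14 higher and 3 lower, against 29.9% of 37081 sites (24.6% higher and 5.37% lower), and 12 of the 14 had no peak in ctrl/LPS. The adjusted p of those 12 depends on the value given to a missing peak. IL-4 PT/LPS lists held 36738 to 38955 peaks, more than ctrl/LPS, and the part of this in the gains was not tested. Higher sites with peaks in both groups were Fos at +36.8 kb, given above (0.73 ± 0.17, adjusted p = 0.0291), and Batf at +11.6 kb (0.88 ± 0.18, adjusted p = 0.0191). Atf3 at −61.1 kb, the window printed with the p300 results, had no p65 peak in ctrl/LPS and 28.4 and 15.0 in IL-4 PT/LPS (adjusted p = 0.000636). Fosl2 at +36.7 kb had peaks in IL-4 PT/LPS alone, at 20.2 and 10.3 (adjusted p = 0.00114). Both sites were called for p300 after 1 hr of IL-4, with no ctrl peak, and these calls were lost without centring. Jund at −4.68 kb had peaks in IL-4 PT/LPS alone too, at 29.6 and 10 (adjusted p = 0.00427). Lower sites were Fos at +16.6 kb, with no peak without LPS, 21.1 and 30.2 in ctrl/LPS, and 12.7 and 14.9 in IL-4 PT/LPS (−1.15 ± 0.21, adjusted p = 0.0118), the Batf promoter at −0.09 kb, with 6.71 and 7.91 against 4.10 and 3.10 (−1.30 ± 0.21, adjusted p = 0.00734), and Fosl2 at −101 kb, with 10.6 and 6.09 against no peak (adjusted p = 0.000986). On leaving out IL-4 PT/LPS replicate 1 or 2, 4 or 2 sites passed.

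Within pretreated cells, LPS called 38 of 73 AP-1 sites (52.1%), 34 higher and 4 lower, against 55.2% of 36247 sites (51.4% higher and 3.87% lower). Without centring 51 were higher and 1 lower, and with quantile normalization 44 and 2. Without IL-4 PT/LPS replicate 1 or 2 the count was 15 or 16. The response to LPS differed between pretreated and untreated cells at 18 of 76 AP-1 sites (23.7%), 13 higher and 5 lower in pretreated cells, against 26.9% of 37564 sites (20.9% higher and 5.98% lower), and without IL-4 PT/LPS replicate 1 or 2 the count was 2. The comparisons share their LPS and control samples. Where no sample without LPS had a peak, the difference of the responses repeats that between IL-4 PT/LPS and ctrl/LPS. Of the 76 AP-1 p65 sites, 61.8% overlapped a PU.1 peak of the ctrl lists, 80.3% a p300 peak, 36.8% an H3K27Ac region, 44.7% an HDAC1 peak, 44.7% an HDAC2 peak, and 34.2% an HDAC3 peak. Over all p65 sites the shares were 58.0%, 76.7%, 46.4%, 49.7%, 45.3%, and 27.8%.

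**Figure D4:**
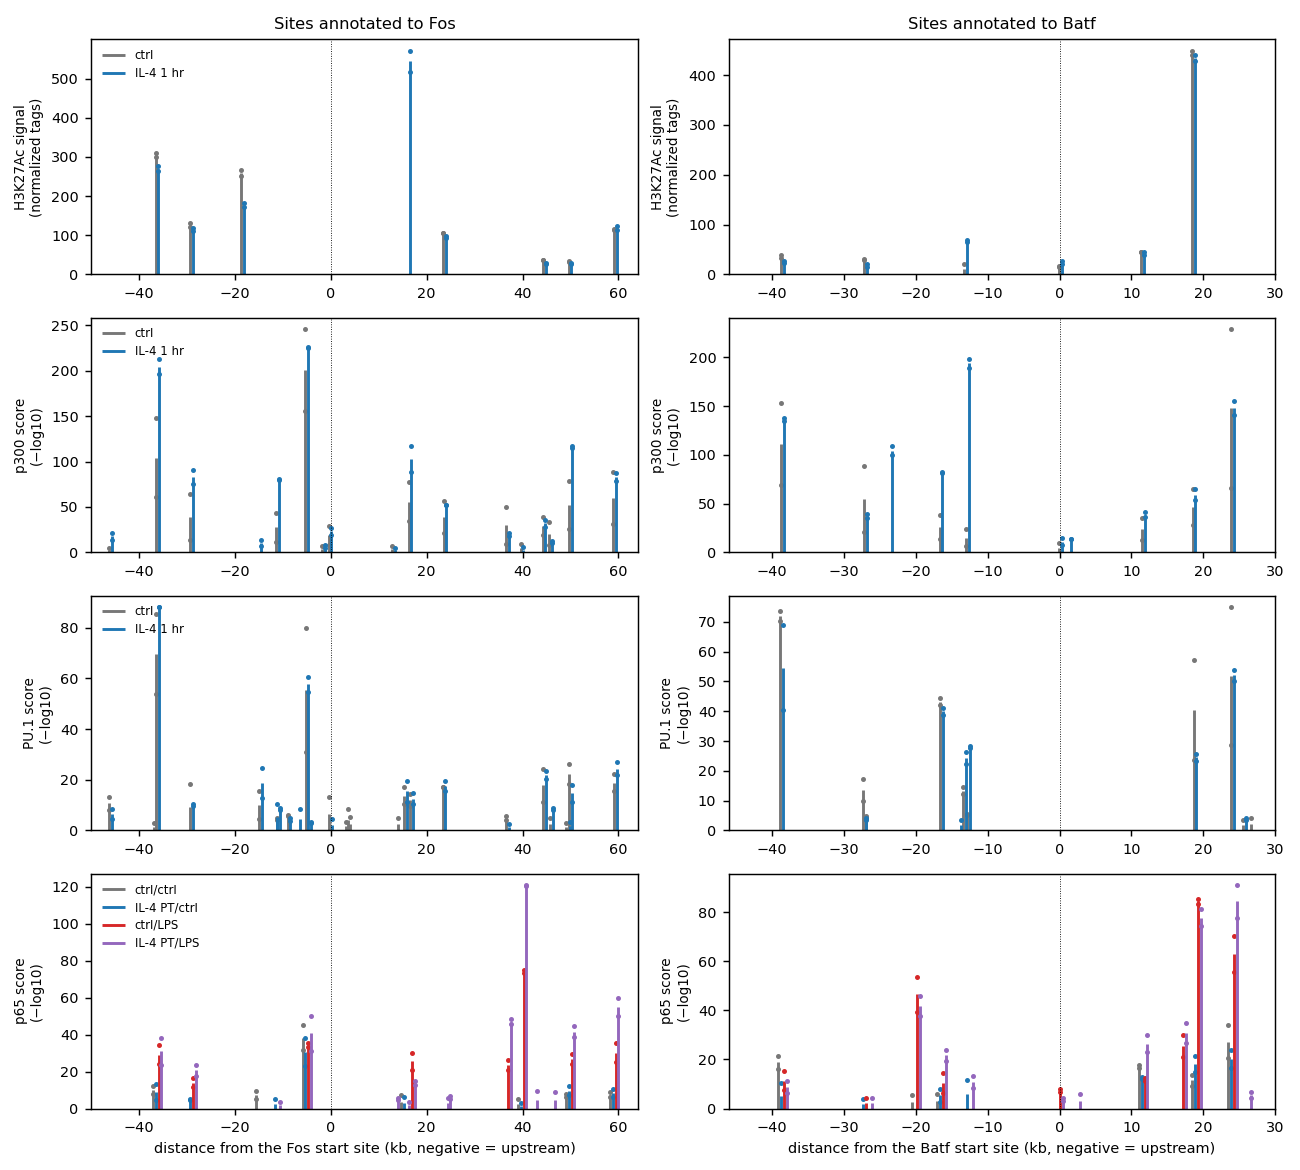
Peak scores around the start sites of Fos and Batf by distance in kb, for H3K27Ac, p300, and PU.1 in ctrl and IL-4 1 hr and for p65 in the 4 groups of the LPS experiment, with bars at the group mean (a missing peak counted as 0) and points for samples. At Batf, p300 and PU.1 near −12.7 kb are higher after IL-4, and p65 near +19 kb is high in both LPS groups. At Fos, p65 near +39.9 kb is highest in IL-4 PT/LPS, a difference from ctrl/LPS that was not called.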

How the data were processed

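ChIP-seq peak lists of 56 BMDM samples were analysed, 28 groups of 2 over 9 antibodies, grouped by their labels. Per the submitters' processing notes the tools were BWA 0.7.10, SAMtools 0.1.19, MACS2 2.0.10, and HOMER 4.2, on mm10. The authors called peaks per sample. For 52 files the deposited score was on a −log10 scale of p or q, as its values show, and the sources used here do not say which. For H3K27Ac the deposited score was the normalized tag signal of a 1001 bp region from HOMER findPeaks. Blacklisted regions were removed by the authors. Read depth was not given, so lower peak numbers may mean lower depth.

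AP-1 peaks were taken by the gene name in the files, the nearest start site. RNAPII scores were summed per gene, and for other antibodies peaks that overlapped by at least 1 bp were merged into sites and the highest score was taken. Values were set on a log2 scale. Genes or sites with a peak in at least 2 samples were kept, samples were centred on their median over those found in every sample, and a missing peak then got the lowest centred value. limma 3.58.1 in R 4.3.3 was fitted across all genes or sites, with all groups of an antibody and experiment in 1 fit, and adjusted p values are Benjamini-Hochberg over all those with a peak in the groups compared. A call is an adjusted p of at most 0.05, and errors are SE with n = 2 per group. An exact permutation test of 2 against 2 cannot go below 0.333. The fits were tested on simulated data. Tables and plots used Python 3.11.15, pandas 2.3.3, NumPy 2.4.6, and matplotlib 3.10.9.

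All 9 genes are described. For antibodies other than RNAPII the sites named are those called and otherwise the highest of a gene, others being marked as chosen after their values were seen, with at most 4 further genes named per list and comparison and the 3 most alike for Fos, Jun, Junb, and Atf3. The members and lists were chosen with earlier results of these data known. Alternatives were no centring, quantile normalization, a floor 4 times as high, no filter, a peak in every sample, the upper 50% of peaks, a variance trend, the highest peak, leaving out intergenic peaks, a replicate block, and each sample left out. Setting missing peaks before centring and joining peaks into sites only at 50% overlap were added after seeing the data. Sequences are from RefSeq's GRCm38.p6, the assembly called mm10.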

Additional observations from a re-analysis of the deposited data

Results flagged for a closer look

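The response of p65 to LPS differed between IL-4 pretreated and untreated cells at 18 AP-1 sites, by the limma test of that difference itself (adjusted p of at most 0.05), where 26.9% of all 37564 sites differed. At 16 of the 18 a group had no peak, so the size and adjusted p of those differences depend on the value given to a missing peak. Where no sample without LPS had a peak, these samples all got the same set value. The difference of the responses is then the difference between IL-4 PT/LPS and ctrl/LPS again and adds no separate result. This holds at each Fosl2 site and the Jund site below, among others. The log2 differences of the responses below are pretreated minus untreated.

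At Atf3 −47.4 kb, with peaks in all 8 samples, the difference was −1.02. At Batf +11.6 kb, also with peaks in all 8, it was 1.13. Among Fos sites it was −3.14 at −29 kb, 3.77 at −14.8 kb, 1.99 at +13.1 kb, −1.15 at +16.6 kb, and 2.18 at +24.1 kb. Among the other Batf sites it was −1.30 at −0.09 kb and 2.04 at +26.1 kb. Upstream of Jun it was 1.87 at −163 kb, 2.60 at −199 kb, and 1.82 at −226 kb. At Fosl2 it was −2.92 at −101 kb, 2.48 at −21.1 kb, 2.96 at +26.6 kb, and 3.5 at +36.7 kb. At Fosb −17.3 kb it was 2.27, and at Jund −4.68 kb it was 3.75. Without IL-4 PT/LPS replicate 1 or 2 the number of sites that differed was 2. With a peak required in every sample it was 0, so Atf3 −47.4 kb and Batf +11.6 kb, which stay in that test, did not pass.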

How the results depend on the processing

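The counts of AP-1 genes and sites called depended on the processing, with the cause not tested. Of 2262 gene and site values under other settings, 1867 kept their direction and side of the threshold or moved by less than their SE, 193 no longer passed, 61 newly passed, 134 moved by more, and 7 changed sign. In RNAPII-pS5 the LPS comparison (2 genes) gave 1 without centring, 1 with quantile normalization, 4 with a variance trend, and 4 without intergenic peaks. IL-4 PT/LPS against ctrl/LPS (1) gave 0 without centring, with quantile normalization, with the highest peak, and without intergenic peaks, 2 with a floor 4 times as high, and 5 with a trend. Against IL-4 PT/ctrl, the same group (3) gave 1 without intergenic peaks, and the difference of responses (0) gave 3 with a trend. In RNAPII-pS2 the LPS comparison (1) gave 2 without centring, 3 with quantile normalization, 5 with the higher floor, 2 with a peak in every sample, 2 with the upper 50% of peaks, 4 with a trend, 3 with the highest peak, and 2 without intergenic peaks. IL-4 PT/ctrl against ctrl/ctrl (0) gave 2 with quantile normalization, 2 with the higher floor, 1 with the upper 50%, 1 with a trend, and 3 without intergenic peaks. The comparison of IL-4 PT/LPS with ctrl/LPS (0) gave 1 with the higher floor, the upper 50%, a trend, and the highest peak. That with IL-4 PT/ctrl (0) gave 1 without centring, 2 with quantile normalization, 3 with the higher floor, 3 with the upper 50%, 4 with a trend, 3 with the highest peak, and 2 without intergenic peaks, and the difference of responses (0) gave 1 with a trend and 1 without intergenic peaks.

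For p300 (14 sites) no centring gave 0 and missing peaks set before centring gave 4, where the median of all sites moved from 0.22 to 0.78 without centring. For p65 the LPS comparison (30) gave 7 with a peak in every sample. IL-4 PT/ctrl (3) gave 5 with quantile normalization, 0 with a peak in every sample, and 1 with the upper 50%. IL-4 PT/LPS against ctrl/LPS (17) gave 10 with the higher floor, 0 with a peak in every sample, and 9 with the upper 50%. IL-4 PT/LPS against IL-4 PT/ctrl (38) gave 19, 4, and 19 under the same settings and 23 with missing peaks set before centring. The difference of responses (18) gave 9, 0, and 7. A peak in every sample leaves fewer sites to test. Atf3 −47.4 kb and Batf +11.6 kb, with peaks in all 8 samples, stayed in. Under that setting neither passed in the difference of responses, nor did Batf +11.6 kb in IL-4 PT/LPS against ctrl/LPS.

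Values that changed sign were Fosb in RNAPII-pS5 from IL-4 PT/ctrl to IL-4 PT/LPS (0.48) and Fosl2 in RNAPII-pS2 with IL-4 for 24 hr (1.66), both without intergenic peaks. Under that setting Fosl2 was called higher (SE 0.32, limma adjusted p = 0.025). For p65 from IL-4 PT/ctrl to IL-4 PT/LPS they were Fos −5.06 kb (0.42) and Jun −163 kb (0.07) without centring and Batf −0.09 kb (−0.06) with missing peaks set before centring. For the difference of p65 responses they were Fos −29 kb (0.39) with the upper 50% of peaks and Jun −163 kb (−0.12) with the higher floor.

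Without 1 sample the counts ran from 6 to 7 for H3K27Ac, 0 to 3 for HDAC3 (3 without ctrl replicate 1), 0 to 39 for p300, and stayed at 0 for HDAC1, HDAC2, PU.1, and both RNAPII forms after 1 hr of IL-4. For RNAPII-pS5 they were 1 to 2 for LPS, 0 to 1 for IL-4 PT/LPS against ctrl/LPS, and 0 to 3 against IL-4 PT/ctrl, and for RNAPII-pS2 1 to 2 for LPS (2 without either IL-4 PT/ctrl replicate). The other RNAPII comparisons stayed at 0. For p65 they were 24 to 33 for LPS, 3 to 12 for IL-4 PT/ctrl (5 and 12 without its replicate 1 and 2), 2 to 22 against ctrl/LPS, 15 to 39 against IL-4 PT/ctrl, and 2 to 18 for the difference of responses (11 without either ctrl/ctrl replicate).

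With a replicate block the counts were 9 for H3K27Ac, 0 for p300, 1 for LPS in RNAPII-pS5, 0 against ctrl/LPS, 1 against IL-4 PT/ctrl, 1 for LPS in RNAPII-pS2, and for p65 28 for LPS, 16 against ctrl/LPS, 36 against IL-4 PT/ctrl, and 13 for the difference of responses. Correlations between same-numbered samples, as deviations from their group means, were −0.05 to 0.06 over 26 pairs of groups. With 2 samples per group this cannot tell whether same-numbered samples share a mouse or a batch, and the labels do not say. Joining peaks into 1 site only where they overlapped by at least 50% gave counts within 1.5 times those above. Counting a peak for a site only where it overlapped at least 50% of the shorter of peak and merged site was not run, since each site contains its peaks. Only peaks past the callers' thresholds are listed, with 2 samples per group and unknown depth, so a missing peak is not absence of binding.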
